A study of Mus musculus with 12 samples.

Results

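OPCL61, an HRas-transformed line made from mouse oligodendrocyte precursor cells, was compared with ASTL61, the matching line made from astrocytes. The comparison used the 2 arrays titled OPCL61 and the 2 arrays titled ASTL61, 4 of the 12 arrays in the series. Genes were taken from probe sets with a single gene symbol, each gene by its probe set with the highest mean over all 12 arrays, which gave 18193 genes. Of these, 12787 had a mean above background in at least 1 group of the series and were tested.

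All cells came from telencephalon of embryonic day 14.5 BL6 mice without p53 (genotype p53-/-), grown first as floating neural stem cell spheres. The parental oligodendrocyte precursor cells, OPC, were made from these spheres in 0.25% fetal calf serum with 2 ng/ml of bFGF and 10 ng/ml of PDGFAA and were purified by sequential immunopanning. The parental astrocytes, AST, were made by 3 weeks in 10% fetal calf serum. OPCL61 and ASTL61 are these same 2 cell types after electroporation of plasmids for EGFP with HRasL61, an always active HRas, and for neomycin resistance, selection in 0.5 mg/ml neomycin and sorting for GFP. Loss of p53 was thus shared by all 4 groups. The medium in which the arrayed cells were last kept is given only as the protocol of their cell type, so cell type and serum cannot be told apart in either pair. In this array series the labels do not say whether the 2 arrays of a group came from separate cultures or clones, so p-values measure the spread between these samples, which may be technical. In bulk RNA, fewer cells of a type and less RNA per cell cannot be told apart.

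Oligodendrocyte precursor cells are dividing glial cells of the brain that depend on PDGF, carry the transcription factors Olig1, Olig2 and Sox10, and give rise to the myelin-forming oligodendrocytes. Astrocytes support neurons and take up glutamate, and in serum culture they spread, build actin stress fibres and secrete matrix. Active HRas drives the RAF-MEK-ERK kinase cascade, whose output includes feedback inhibitors of the Sprouty, Spred and Dusp families, and p53 normally stops or kills cells with such signalling.

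Values are log2 signals, so a difference of 1 is a 2-fold change. A signal under 5.18, the median of all values, may be background, and a difference to it may then be a lower bound. Array medians lay between 5.157 and 5.211. The 2 OPCL61 arrays differed from each other with an SD over genes of 0.416 and the 2 ASTL61 arrays with 0.371. ASTL61 array 1 lay close to its parent: it differed from AST arrays 1 and 2 with SDs of 0.231 and 0.333, less than from ASTL61 array 2. ASTL61 array 2 lay further off, with SDs of 0.412 and 0.482 from AST arrays 1 and 2. The 2 AST arrays differed from each other with 0.253. Over all genes, 3 of 12787 (0.0235%) passed the threshold between ASTL61 and AST, with 939 at an unadjusted p under 0.05, against 6181 (48.3%) between OPCL61 and OPC. The OPCL61 arrays differed from the ASTL61 arrays with SDs of 1.015 to 1.042. The line comparison therefore set OPCL61 against arrays nearer to unmodified AST than to OPCL61, array 1 more so than array 2. The Hras and Trp53 transcripts were not analysed here.

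Several marker genes went against the label of the astrocyte groups, which are named here by their array titles. Gfap, the intermediate filament of astrocytes, read 6.04 and 5.62 in OPCL61 and 5.31 and 5.37 in ASTL61, and the glutamate transporter Slc1a2 and the folate enzyme Aldh1l1 had group means of 4.58 and 4.24 in ASTL61, under the background level. The gap junction protein Gja1 was high in all 4 arrays, between 11.51 and 11.95. Of the 22 astrocyte markers on the array, 17 had an ASTL61 mean above background and 18 an OPCL61 mean. Their mean level was 6.28 and 6.44 in ASTL61, 7.35 and 6.84 in OPCL61 and 9.21 and 9.08 in OPC. The 19 pericyte and fibroblast genes on the array averaged 7.16 and 7.45 in the ASTL61 arrays, 6.92 and 6.56 in AST, 5.23 and 4.91 in OPCL61, and 4.67 and 4.63 in OPC. They were higher still in the unmodified neural stem cells, at 8.80 and 8.36. Of these 19 genes, 12 had an ASTL61 mean above background and 8 an OPCL61 mean. Fap, Dpt and Tcf21 were at background in every group. The part played by such cells in the results below was not tested. In OPCL61 the OPC markers Olig1 and Olig2 were present, while Sox10 read 6.26 and 6.28 in OPCL61 and 6.11 and 6.198 in ASTL61 and did not pass.

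Nefl, Rhox5, Lox and Cav1 mark the 2 ends of the comparison. Nefl encodes the light chain of the neurofilaments, the intermediate filaments of axons, and its log2 signal was 12.34 and 12.72 in OPCL61 and 3.48 and 3.57 in ASTL61. Its difference was 9.01 ± 0.23 (SE, adjusted p 1.69e-08 in limma's test over all 12787 genes). Both OPCL61 arrays stood far above both ASTL61 arrays, which lay at background. Rhox5, a homeobox gene of the X chromosome best known from testis and placenta, read 12.92 and 13.04 in OPCL61 and 4.93 and 4.74 in ASTL61, a difference of 8.14 ± 0.12 (adjusted p 7.71e-10). In the parents the same 2 genes were far lower, with Nefl at 5.87 and 6.04 in OPC and 3.71 and 3.24 in AST and Rhox5 at 6.97 and 7.03 in OPC and 5.16 and 4.98 in AST.

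Lox and Cav1 showed the reverse. Lox, the enzyme that cross-links collagen and elastin, read 4.20 and 3.63 in OPCL61 and 12.64 and 12.61 in ASTL61, a difference of -8.71 ± 0.24 (adjusted p 2.02e-08). Cav1, the main coat protein of caveolae, read 4.99 and 5.14 in OPCL61 and 12.43 and 12.35 in ASTL61, a difference of -7.32 ± 0.22 (adjusted p 3.59e-08). Neither gene had an OPCL61 array above background. Both lines stood near their parents, since Lox was at 4.12 and 3.57 in OPC and 12.32 and 11.85 in AST and Cav1 at 4.87 and 5.21 in OPC and 12.36 and 12.11 in AST.

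**Figure D1:**
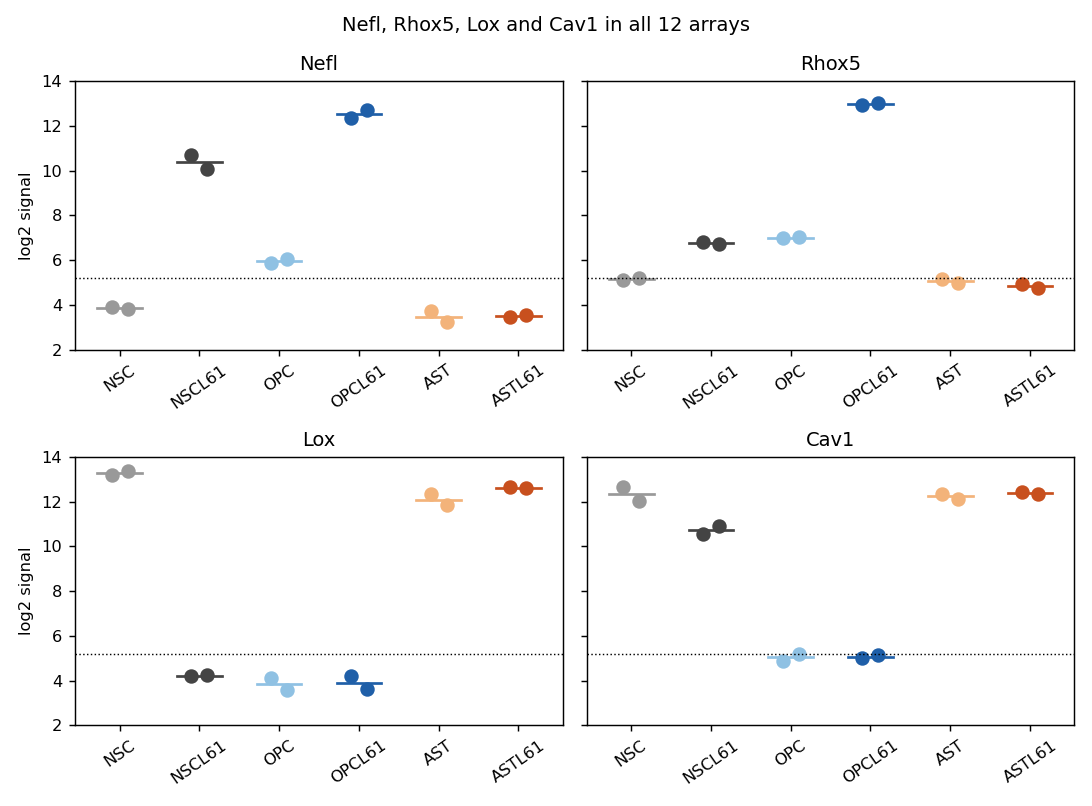
Log2 signal (vertical axis) of Nefl, Rhox5, Lox and Cav1 in each of the 12 arrays, by group, with the group mean as a bar and the background level of 5.18 as a dotted line. Nefl and Rhox5 are highest in OPCL61, at 12.34 to 13.04, whereas Lox and Cav1 in OPCL61 stay at the background level seen in OPC.

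In NSCL61, the line made from neural stem cells, Nefl averaged 10.38, Rhox5 6.77, Lox 4.23 and Cav1 10.71. NSCL61 thus lay with OPCL61 for Lox and with ASTL61 for Cav1. The unmodified neural stem cells had Lox at 13.27 and Cav1 at 12.34, as in AST.

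Promoters are shown for Rhox5, Cav1 and for 3 further genes with large differences whose upstream bases hold a searched motif, as RefSeq gives them on GRCm38.p6. Each sequence runs 5′ to 3′ on the gene's strand and ends at the base before an annotated start. Capitals mark matches on either strand to GGAATG (bound by TEAD factors), TGANTCA (bound by AP-1 factors) or TATAAA. The genes are Rhox5 (chrX:37754358-37754607, plus strand), Nppb (chr4:147985650-147985899, plus strand), Prom1 (chr5:44101737-44101986, minus strand), Cav1 (chr6:17306085-17306334, plus strand) and Acta2 (chr19:34255374-34255623, minus strand).
Rhox5: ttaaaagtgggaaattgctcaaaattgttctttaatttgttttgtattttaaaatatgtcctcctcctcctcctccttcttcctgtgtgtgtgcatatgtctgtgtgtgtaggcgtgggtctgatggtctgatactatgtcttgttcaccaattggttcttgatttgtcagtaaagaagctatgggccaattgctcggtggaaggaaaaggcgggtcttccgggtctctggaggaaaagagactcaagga
Nppb: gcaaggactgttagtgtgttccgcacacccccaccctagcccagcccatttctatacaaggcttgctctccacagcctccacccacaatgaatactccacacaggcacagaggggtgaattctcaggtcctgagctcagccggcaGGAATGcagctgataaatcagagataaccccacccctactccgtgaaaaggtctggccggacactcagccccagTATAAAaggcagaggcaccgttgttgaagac
Prom1: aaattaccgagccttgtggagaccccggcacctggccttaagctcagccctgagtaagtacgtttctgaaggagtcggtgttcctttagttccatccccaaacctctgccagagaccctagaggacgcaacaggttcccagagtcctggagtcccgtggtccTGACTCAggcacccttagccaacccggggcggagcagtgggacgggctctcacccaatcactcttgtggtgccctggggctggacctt
Cav1: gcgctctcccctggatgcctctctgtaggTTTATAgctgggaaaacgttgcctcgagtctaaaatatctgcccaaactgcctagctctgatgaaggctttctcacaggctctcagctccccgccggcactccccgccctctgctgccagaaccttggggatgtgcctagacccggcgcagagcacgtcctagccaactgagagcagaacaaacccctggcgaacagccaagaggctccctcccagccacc
Acta2: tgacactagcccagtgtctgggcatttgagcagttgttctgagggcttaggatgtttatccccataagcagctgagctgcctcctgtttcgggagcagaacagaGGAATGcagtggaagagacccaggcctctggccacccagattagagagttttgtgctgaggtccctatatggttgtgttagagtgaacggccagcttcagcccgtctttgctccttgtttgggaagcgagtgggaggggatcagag
Rhox5 has no match to these motifs in this window, and Cav1 has TATAAA on the other strand, starting 221 bases before its start. Nppb has GGAATG starting 105 bases and TATAAA starting 31 bases before its start. Acta2 has GGAATG starting 146 bases before its start, and Prom1 has TGACTCA starting 88 bases before. RefSeq gives a second start for Cav1, whose window (chr6:17307390-17307639) has no match, and for Prom1, whose window (chr5:44094769-44095018) has TGANTCA starting 189 bases before that start. These letters are descriptions of the sequence and not sites.

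Over promoter windows of 250 bases, TGANTCA was held by 10 of 68 windows (14.7%) of genes that were over 16-fold higher in OPCL61, by 2 of 69 (2.90%) of those over 16-fold lower, and by 4.65% of the 13170 windows of tested genes. The 10 windows belong to 8 genes, since a gene can have several starts. GGAATG was held by 11.8% of windows of the higher genes, by 15.9% of those of the lower genes and by 10.7% of those of all tested genes. TATAAA was held by 6.79% of the windows of tested genes. Also searched was CCWWWWWWGG, where W is A or T. It was held by 1.47% of windows of the higher genes, 2.90% of the lower and 1.20% of all tested genes. For CACGTG these shares were 5.88%, 4.35% and 8.12%. Over all 32851 windows of the table the shares were 6.75% for TGANTCA, 12.6% for GGAATG and 12.4% for TATAAA. These shares are descriptions, with no test.

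Across all genes, 4687 of 12787 (36.7%) differed between the lines at an adjusted p under 0.05 in limma, 2416 higher (18.9%) and 2271 lower (17.8%) in OPCL61. The size varied widely. Of these 4687 genes, 1832 differed by over 2-fold, 652 by over 4-fold and 153 by over 16-fold, 71 of the last higher and 82 lower in OPCL61. The arrays of the lines did not overlap for 65.3% of all genes, 34.1% with OPCL61 higher, so that a lack of overlap alone was common. Both line means lay above background for 3876 of the 4687 genes. With only the 4 line arrays in the fit, 2583 passed. Below, a call is said to be kept where it also passed after any 1 of the 4 line arrays was left out, as 2671 calls did. That fit assumes the lone array to vary like the other groups. The counts of each gene list below stand beside the shares over all genes, 18.9% higher and 17.8% lower.

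The other 10 of the 12 largest differences with higher signal in OPCL61 spanned neural, epithelial and secreted products. Fabp7, the brain fatty acid binding protein of radial glia, read 11.73 and 12.16 in OPCL61 and 4.63 and 4.06 in ASTL61. Nefm, the medium neurofilament chain and the neighbour of Nefl on chromosome 14, read 10.31 and 10.70 in OPCL61 and 4.14 and 3.65 in ASTL61. Both were at background in ASTL61. Nppb, which encodes the natriuretic peptide BNP, read 11.80 and 12.13 in OPCL61 and 5.46 and 5.86 in ASTL61. The epidermal keratin Krt6a read 11.42 and 12.12 in OPCL61 and 5.76 and 5.77 in ASTL61. Qrfpr, a receptor for the neuropeptide QRFP, read 9.36 and 9.32 in OPCL61 and 2.95 and 3.004 in ASTL61. In these 3 genes the OPCL61 arrays exceeded the ASTL61 arrays by more than 5 log2 units. The integrin chain Itga8 read 9.50 and 10.05 in OPCL61 and 4.21 and 3.63 in ASTL61, and Igfbp5, which binds insulin-like growth factors, read 10.12 and 8.49 in OPCL61 and 3.37 and 3.73 in ASTL61. The OPCL61 arrays differed from each other in Igfbp5 and in Klhl4, which read 7.46 and 9.20 in OPCL61 and 2.64 and 2.63 in ASTL61, yet did not overlap with ASTL61. Bex4 and Ube2ql1 completed the set, with differences of 6.02 ± 0.27 and 5.75 ± 0.20. Another probe set of Igfbp5 differed by 0.597 and another of Ube2ql1 by -0.192, so the size for these 2 genes depends on the probe set. Adjusted p for the 12 lay between 7.71e-10 and 5.13e-05.

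The 12 largest differences with lower signal in OPCL61 were mostly genes of matrix and of contractile mesenchymal cells. Besides Lox and Cav1 they held the proteoglycan Bgn (-7.77 ± 0.15), the type I collagen chains Col1a1 (-7.42 ± 0.30) and Col1a2 (-7.12 ± 0.20), the matrix Gla protein Mgp (-6.95 ± 0.54) and Ccn2 (-7.06 ± 0.25), a secreted matricellular protein. Bgn read 5.24 and 4.90 in OPCL61 and 12.93 and 12.76 in ASTL61, and Col1a1 read 4.07 and 4.31 in OPCL61 and 11.60 and 11.63 in ASTL61. Acta2, the smooth muscle actin of stress fibres, read 6.45 and 5.81 in OPCL61 and 13.51 and 12.97 in ASTL61. Acta2 was the brightest of the 12 in OPCL61, and the dimmest in ASTL61 was Ctsz, at 2.77 and 2.72 in OPCL61 and 10.04 and 9.97 in ASTL61. The PDGF receptor of pericytes, Pdgfrb, read 3.36 and 3.20 in OPCL61 and 10.44 and 10.27 in ASTL61, and the chemokine Cxcl12 read 4.24 and 4.93 in OPCL61 and 12.004 and 11.33 in ASTL61. The membrane protein Plp2 differed by -7.28 ± 0.14 and Ctsz, a lysosomal protease, by -7.26 ± 0.14. Adjusted p for the 12 lay between 3.1e-09 and 1.73e-05.

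**Figure D2:**
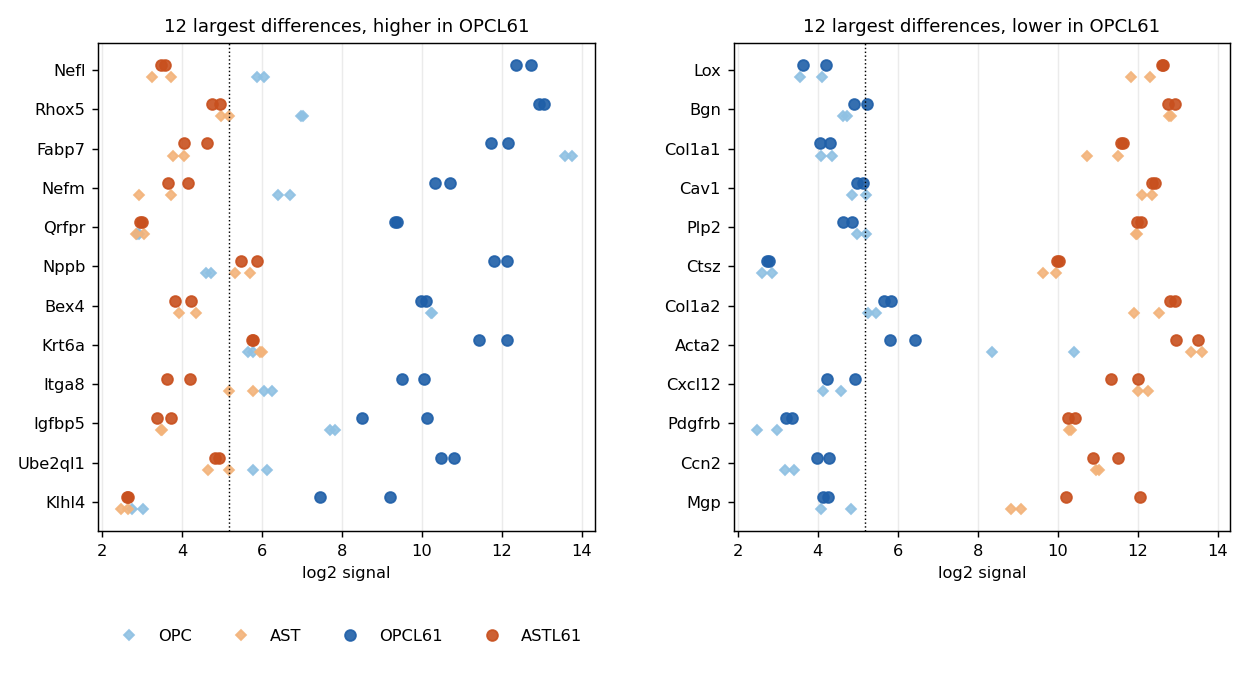
Log2 signal (horizontal axis) of the 12 genes with the largest differences in each direction, with circles for the 2 OPCL61 and 2 ASTL61 arrays, diamonds for the OPC and AST arrays, and the background level of 5.18 as a dotted line. On the right, the OPC arrays lie on the OPCL61 side and the AST arrays on the ASTL61 side for most genes, while OPC reads 10.40 and 8.36 for Acta2 and AST reads 9.09 and 8.84 for Mgp. On the left OPC reads 13.76 and 13.58 for Fabp7 but 2.93 and 2.87 for Qrfpr.

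Some oligodendrocyte precursor markers were higher in OPCL61. Of 20 OPC markers tested, 8 were higher in OPCL61, 1 was lower and 11 did not pass, with a median difference of 0.33 against 0.01 over all genes. Of all genes, 18.9% were higher and 17.8% lower. All 8 higher calls were kept, but Gpm6a and Tnr were under the background level in both lines, with Gpm6a at 3.69 and 3.77 in OPCL61 and 3.01 and 2.78 in ASTL61 and Tnr at 4.53 and 4.36 in OPCL61 and 2.91 and 2.76 in ASTL61. The transcription factor Olig1 read 9.18 and 8.89 in OPCL61 and 3.49 and 3.39 in ASTL61 and its neighbour Olig2 6.82 and 5.90 in OPCL61 and 2.79 and 2.89 in ASTL61. The receptor phosphatase Ptprz1 read 8.83 and 7.72 in OPCL61 and 3.83 and 4.23 in ASTL61, and the homeodomain factor Nkx2-2 6.83 and 5.38 in OPCL61 and 3.47 and 3.60 in ASTL61. All ASTL61 arrays were at background for these 4 genes, and all OPCL61 arrays above it. The levels were far under those of OPC, where Olig1 read 13.86 and 14.04 and Olig2 12.31 and 12.24. In the parents 18 of the 20 markers were higher in OPC, against 26% of all genes, with a median of 5.90. The line difference departed from the parental one in 18 of 20 markers, against 35.3% of all genes in the same limma test. Among the 18 were Olig1 (-4.78 ± 0.24, adjusted p 2.48e-06), Olig2 (-5.84 ± 0.35, adjusted p 6e-06), Ptprz1 (-3.77 ± 0.44, adjusted p 0.000245) and Gpm6a (-7.96 ± 0.18, adjusted p 1.97e-08).

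Pdgfra, the PDGF receptor that defines these precursors, was the lower one. It read 8.05 and 7.14 in OPCL61 and 8.96 and 9.0 in ASTL61, a difference of -1.39 ± 0.44 (adjusted p 0.035). The call was not kept, with adjusted p of 0.204 without OPCL61 array 2, 0.102 without ASTL61 array 1 and 0.113 without ASTL61 array 2. Of 13 genes of mature oligodendrocytes, 4 were higher and none lower in OPCL61 (median 0.07), and 3 of the 4 calls were kept. Ugt8a, which makes the myelin lipid galactocerebroside, read 5.99 and 7.28 in OPCL61 and 3.22 and 2.80 in ASTL61, and the myelin membrane enzyme Cnp 9.92 and 9.14 in OPCL61 and 8.22 and 8.24 in ASTL61. Aspa, which breaks down N-acetylaspartate, read 9.17 and 9.49 in OPCL61 and 7.13 and 6.54 in ASTL61, above its level in OPC of 5.62 and 4.93. The myelin proteins Mbp and Mag were near background in both lines, with Mbp at 5.76 and 5.92 in OPCL61 and 5.99 and 5.87 in ASTL61.

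Few genes listed as astrocyte markers were higher in ASTL61 than in OPCL61. Of 19 tested, 8 were higher and 1 lower in OPCL61, with a median of 1.02, and 4 of the 9 calls were kept. Leaving out OPCL61 array 1 left 5 calls. Aldoc, an aldolase of astrocytes, read 8.90 and 8.23 in OPCL61 and 5.16 and 6.27 in ASTL61, and the acyl-CoA synthetase Acsbg1 8.61 and 7.72 in OPCL61 and 5.78 and 5.98 in ASTL61. Glutamine synthetase, Glul, read 9.67 and 10.50 in OPCL61 and 8.38 and 8.41 in ASTL61, and the sodium pump chain Atp1b2 7.68 and 7.03 in OPCL61 and 6.08 and 5.76 in ASTL61. All 4 genes were higher still in OPC, at means of 13.55, 11.32, 11.75 and 11.33. Another Aldoc probe set differed by -0.081.

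Neural stem and progenitor genes divided, with 5 of 16 higher and 3 lower in OPCL61 and a median of -0.02, of which 3 calls were kept. Without OPCL61 array 2 there were 5 calls and without ASTL61 array 2 there were 4. Fabp7 led the higher ones. Prom1, the surface antigen CD133, read 8.57 and 8.22 in OPCL61 and 3.82 and 4.25 in ASTL61, and it was at background in both parents, at 3.49 and 3.73 in OPC and 4.34 and 3.90 in AST. The forebrain factor Pax6 was lower, at 5.31 and 4.70 in OPCL61 and 7.48 and 6.84 in ASTL61. The stem cell factor Sox2 did not pass, at 11.63 and 11.58 in OPCL61 and 10.17 and 10.53 in ASTL61, but did in a fit of the 4 line arrays alone (1.26, adjusted p 0.0122).

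Neuronal genes stood higher in OPCL61 in 11 of 20 cases and lower in 1 (Stmn2), with a median of 1.36, and 10 calls were kept, all of them higher. Apart from the neurofilaments, the growth cone protein Gap43 read 10.23 and 9.87 in OPCL61 and 6.28 and 7.45 in ASTL61, the tubulin regulator Stmn3 8.78 and 8.403 in OPCL61 and 4.88 and 5.0 in ASTL61 and Bex2 8.83 and 9.22 in OPCL61 and 4.81 and 5.28 in ASTL61. The ubiquitin hydrolase Uchl1 read 10.75 and 11.06 in OPCL61 and 9.37 and 9.23 in ASTL61. Other neuronal genes did not pass, among them the neuronal tubulin Tubb3, at 6.46 and 7.10 in OPCL61 and 6.99 and 7.54 in ASTL61, and Map2, at 7.86 and 7.23 in OPCL61 and 8.30 and 6.999 in ASTL61. Bex1, Bex2 and Bex4 are X-linked relatives and were all higher, with Bex1 at 11.98 and 12.24 in OPCL61 and 8.02 and 7.62 in ASTL61. Between the parents, 12 of the 20 neuronal genes were higher in OPC and none lower, with a median of 2.37. Of all genes, 26% were higher and 25.7% lower in OPC. The 24 listed neuronal genes averaged 7.38 and 7.53 in OPC, 7.23 and 7.10 in OPCL61 and 6.99 and 6.91 in NSCL61.

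Of 10 neural crest and Schwann cell genes, 4 were higher and 1 lower (median 0.09), and 4 calls were kept. The endothelin receptor Ednrb read 7.78 and 6.73 in OPCL61 and 3.62 and 3.57 in ASTL61, and the peripheral myelin protein Pmp22 7.0 and 7.70 in OPCL61 and 9.94 and 9.62 in ASTL61. No tested endothelial marker of 4 passed in limma, and no tested one had an unadjusted p under 0.05; 8 more were at background in every group, Pecam1 and Cdh5 among them. Of 5 tested microglial markers, 1 passed, the lysosomal protein Cd68 at 7.86 and 7.26 in OPCL61 and 4.99 and 6.32 in ASTL61, which did not pass with the 4 line arrays alone, while 10 others, including Aif1 and Ptprc, were at background in every group.

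Pericyte and fibroblast genes were lower in OPCL61 in 10 of 14 cases and higher in none, with a median of -2.90, and 6 calls were kept. Besides Col1a1, Col1a2 and Pdgfrb, the matrix protein Fbln2 read 5.25 and 4.65 in OPCL61 and 8.62 and 8.89 in ASTL61 and periostin, Postn, 5.09 and 6.37 in OPCL61 and 8.39 and 9.52 in ASTL61. Both ASTL61 arrays lay above both OPCL61 arrays by over 2 log2 units in each. The matrix proteoglycan Lum did not pass, at 3.65 and 3.32 in OPCL61 and 3.32 and 3.73 in ASTL61.

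Among 21 collagen genes, 14 were lower in OPCL61 and none higher, with a median of -2.08, and 13 calls were kept. The fibril chains Col5a2 (4.29 and 4.50 in OPCL61 and 11.11 and 10.84 in ASTL61) and Col3a1 (8.12 and 6.92 in OPCL61 and 10.35 and 11.10 in ASTL61) and the short chain collagen Col8a1 (6.43 and 5.62 in OPCL61 and 10.48 and 10.21 in ASTL61) were among them. The basement membrane chains Col4a1 and Col4a2 did not pass, with Col4a1 at 10.64 and 9.90 in OPCL61 and 10.87 and 10.61 in ASTL61. Of 15 enzymes and chaperones that process collagen, 9 were lower and 3 higher (median -1.20), and 10 calls were kept. The collagen chaperone Serpinh1 read 5.76 and 5.42 in OPCL61 and 11.28 and 11.16 in ASTL61, and Loxl1, which cross-links elastin, 3.85 and 4.0 in OPCL61 and 9.52 and 9.02 in ASTL61. The higher ones were Plod2, a lysyl hydroxylase, at 10.46 and 10.31 in OPCL61 and 9.43 and 8.89 in ASTL61, with Bmp1 and Pcolce2.

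Of 32 other matrix glycoproteins and proteoglycans, 16 were lower and 3 higher (median -0.76), with 11 calls kept, and 12 calls remained in all without ASTL61 array 2. Fibulin 5, Fbln5, read 4.45 and 3.94 in OPCL61 and 8.27 and 9.04 in ASTL61, and Efemp1 3.45 and 3.56 in OPCL61 and 7.48 and 7.36 in ASTL61. Fibrillin 2, Fbn2, was higher, at 9.36 and 7.84 in OPCL61 and 4.71 and 5.57 in ASTL61. The matricellular protein Sparc was high in both lines and did not pass, at 13.28 and 13.10 in OPCL61 and 12.84 and 12.998 in ASTL61. Of 20 matrix proteases and inhibitors, 6 were lower and 1 higher (median -0.94), and 6 calls were kept. The membrane protease Mmp14 read 4.53 and 4.41 in OPCL61 and 10.54 and 10.33 in ASTL61 and the inhibitor Timp3 7.64 and 7.01 in OPCL61 and 11.17 and 11.73 in ASTL61, whereas the inhibitor Timp4 was higher, at 6.82 and 6.89 in OPCL61 and 4.93 and 4.99 in ASTL61.

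Of 22 integrin chains, which form receptors for matrix, and laminin or nidogen genes, which belong to the basement membrane, 9 were higher in OPCL61 and 3 lower (median 0.18), and 9 calls were kept. After Itga8, the laminin receptor chain Itga6 read 11.55 and 11.73 in OPCL61 and 9.03 and 9.55 in ASTL61, the laminin chains Lama4 8.09 and 8.13 in OPCL61 and 5.63 and 5.63 in ASTL61 and Lamb1 12.15 and 12.25 in OPCL61 and 11.02 and 11.23 in ASTL61. The lower chains were Itgb5, at 8.399 and 7.86 in OPCL61 and 10.50 and 10.04 in ASTL61, Itgb8 and Itga5. The shared chain Itgb1 did not pass, at 11.26 and 11.31 in OPCL61 and 11.42 and 11.56 in ASTL61.

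Smooth muscle contractile genes were lower in OPCL61 in 13 of 15 cases and higher in none (median -1.06), and 9 calls were kept. After Acta2, tropomyosin 2, Tpm2, read 5.19 and 5.09 in OPCL61 and 11.97 and 11.23 in ASTL61, the actin-binding protein Tagln 5.52 and 5.35 in OPCL61 and 11.47 and 10.28 in ASTL61 and the light chain Myl9 5.58 and 4.48 in OPCL61 and 10.68 and 8.96 in ASTL61. The smooth muscle heavy chain Myh11 and the master factor Myocd were at background in every group. Srf, the factor that binds contractile promoters, differed by -0.58 ± 0.18 (adjusted p 0.0324), a call lost without OPCL61 array 1 (0.152) and without ASTL61 array 1 (0.209).

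All 8 genes of caveolae that were tested passed, 6 lower and 2 higher in OPCL61 (median -1.63), and 7 calls were kept. With Cav1, the cavin coat proteins Cavin1 (5.10 and 4.72 in OPCL61 and 8.397 and 8.34 in ASTL61) and Cavin3 (4.84 and 4.62 in OPCL61 and 8.18 and 7.80 in ASTL61) were at background in OPCL61. Cav2, the partner of Cav1, remained high, at 10.07 and 10.01 in OPCL61 and 11.49 and 11.21 in ASTL61. The membrane remodeller Pacsin3 was higher, at 7.78 and 8.11 in OPCL61 and 7.0 and 7.10 in ASTL61. The other higher gene, Cavin2, read 9.66 and 5.70 in OPCL61 and 5.005 and 3.96 in ASTL61, with the 2 OPCL61 arrays far apart, and its call was lost without OPCL61 array 1 (adjusted p 0.111), ASTL61 array 1 (0.0587) or ASTL61 array 2 (0.154).

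Of 26 genes regulated by YAP and TEAD or belonging to their pathway, 13 were lower and 4 higher (median -0.45), with 14 calls kept. Ccn1 read 8.07 and 7.28 in OPCL61 and 11.87 and 12.17 in ASTL61, the muscle ankyrin Ankrd1 7.29 and 5.96 in OPCL61 and 9.90 and 11.001 in ASTL61 and the LIM protein Ajuba 7.48 and 7.36 in OPCL61 and 10.45 and 9.92 in ASTL61. Igfbp3, a secreted binding protein for insulin-like growth factors, went the other way, at 13.02 and 12.60 in OPCL61 and 8.51 and 9.29 in ASTL61. The coactivator gene Wwtr1 did not pass, at 10.82 and 10.38 in OPCL61 and 10.34 and 10.71 in ASTL61.

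Genes that report ERK signalling were higher in OPCL61 in 14 of 25 cases and lower in 3, with a median of 0.80, and 11 calls were kept. A fit of the 4 line arrays alone also gave 11. The list's mean level was 9.398 and 9.05 in OPCL61 but 8.22 and 8.99 in ASTL61, so that ASTL61 array 2 stood near OPCL61. Without ASTL61 array 1, 10 genes were higher and 6 lower. The feedback inhibitors Spry4 (9.79 and 9.19 in OPCL61 and 4.55 and 5.76 in ASTL61) and Spry1 (9.63 and 8.31 in OPCL61 and 6.41 and 7.17 in ASTL61) and the ERK phosphatase Dusp6 (11.60 and 10.53 in OPCL61 and 7.62 and 8.90 in ASTL61) were higher in both OPCL61 arrays than in both ASTL61 arrays. Cyclin D1, Ccnd1, read 12.45 and 12.36 in OPCL61 and 10.69 and 10.73 in ASTL61. Spry4, Spry1 and Dusp6 already differed between the parents, by 3.02 ± 0.39, 2.31 ± 0.38 and 2.15 ± 0.41. The lower genes included Ier3, at 6.66 and 7.29 in OPCL61 and 11.67 and 12.64 in ASTL61, and Dusp1, at 8.99 and 8.66 in OPCL61 and 10.01 and 11.09 in ASTL61. Egr1 and Fosl1 did not pass, with Fosl1 at 10.09 and 10.45 in OPCL61 and 9.98 and 11.09 in ASTL61. Of 11 AP-1 subunits, 2 were higher and 2 lower (median 0.14), 2 calls were kept, and 2 remained without OPCL61 array 2. The 2 kept calls were Fosl2, lower at 8.68 and 8.73 in OPCL61 and 9.99 and 10.05 in ASTL61, and Batf3, higher at 6.86 and 6.83 in OPCL61 and 6.14 and 5.88 in ASTL61.

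Growth factors and their receptors were more often lower in OPCL61, with 15 of 40 lower and 6 higher (median -0.26) and 10 calls kept, and 13 calls in a fit of the 4 line arrays alone. Ereg, a ligand of the EGF receptor, read 3.11 and 3.72 in OPCL61 and 8.66 and 10.66 in ASTL61, Fgf7 5.61 and 5.43 in OPCL61 and 11.08 and 11.76 in ASTL61 and Pdgfc 6.54 and 7.16 in OPCL61 and 10.59 and 10.12 in ASTL61. The HGF receptor Met read 8.94 and 8.85 in OPCL61 and 10.61 and 10.23 in ASTL61 and its ligand Hgf 4.38 and 4.75 in OPCL61 and 7.10 and 8.29 in ASTL61. The EGF receptor itself, Egfr, did not pass, at 7.49 and 7.18 in OPCL61 and 7.23 and 7.22 in ASTL61. Its other probe sets above background in some group differed by 0.015, 0.132, 0.109 and -0.853, so its reading depends on the probe set. Of 6 IGF binding proteins, 2 were higher, Igfbp5 and Igfbp3, and 2 lower, with Igfbp7 at 6.75 and 5.38 in OPCL61 and 10.41 and 10.24 in ASTL61 and Igfbp6 at 5.50 and 5.37 in OPCL61 and 5.94 and 6.68 in ASTL61. The median was 0.77, and 3 of the 4 calls were kept, the exception being Igfbp6.

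Secreted inflammatory factors were lower in OPCL61 in 12 of 23 cases and higher in 2 (median -0.52), and the 8 calls kept were all lower. With the 4 line arrays alone there were 9. Besides Cxcl12, the macrophage factor Csf1 read 8.18 and 7.53 in OPCL61 and 11.69 and 11.84 in ASTL61, and the neutrophil chemokine Cxcl5 3.15 and 3.19 in OPCL61 and 8.65 and 7.87 in ASTL61. Cxcl5 is also 1 of the 3 genes that passed between ASTL61 and AST, where it read 6.12 and 5.63 in AST. The cytokine Tslp was 1 of the 2 higher genes, at 10.24 and 7.75 in OPCL61 and 4.86 and 6.81 in ASTL61, and its call was lost without ASTL61 array 1 (adjusted p 0.0639). Of 10 prostaglandin genes, 5 were lower and 1 higher (median -0.52), and 5 calls were kept. Pla2g4a, the phospholipase that frees arachidonic acid, read 3.85 and 4.26 in OPCL61 and 10.31 and 10.49 in ASTL61. Ptgs2, the inducible cyclooxygenase, was high in all 4 arrays, at 10.86 and 11.24 in OPCL61 and 11.47 and 12.47 in ASTL61, and its call was lost without OPCL61 array 1 (adjusted p 0.164) or ASTL61 array 2 (0.226).

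Of 31 genes of TGF-beta and BMP signalling, 14 were lower and 4 higher (median -0.65), with 13 calls kept. The BMP target Id1 read 6.36 and 6.28 in OPCL61 and 10.04 and 11.23 in ASTL61, and the inhibitor Smad6 5.13 and 3.76 in OPCL61 and 7.56 and 7.66 in ASTL61. The ligand Bmp4 read 5.75 and 5.19 in OPCL61 and 7.79 and 8.01 in ASTL61 and its antagonist Grem1 8.31 and 7.77 in OPCL61 and 9.97 and 11.04 in ASTL61. Inhbb, an activin chain, was higher, at 6.01 and 5.97 in OPCL61 and 4.58 and 4.45 in ASTL61. The receptor Tgfbr2 did not pass, at 10.55 and 10.45 in OPCL61 and 9.98 and 10.20 in ASTL61.

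Factors and cadherins of epithelial-mesenchymal change were divided, 4 of 16 higher and 4 lower (median -0.04), with 7 calls kept. Snai2 read 5.68 and 6.71 in OPCL61 and 10.31 and 10.003 in ASTL61, Snai1 4.63 and 4.41 in OPCL61 and 6.66 and 7.35 in ASTL61 and Twist1 6.49 and 6.77 in OPCL61 and 7.92 and 8.08 in ASTL61, all lower in OPCL61. Cdh6 was higher, at 10.37 and 10.99 in OPCL61 and 4.69 and 6.37 in ASTL61, and Cdh11 lower, at 4.57 and 6.47 in OPCL61 and 10.09 and 10.10 in ASTL61. Zeb1 did not pass, at 10.56 and 9.95 in OPCL61 and 10.01 and 9.89 in ASTL61, and Cdh1, the epithelial cadherin, was at background, at 3.37 and 3.12 in OPCL61 and 2.78 and 3.004 in ASTL61. Of 17 S100A and annexin genes, 9 were lower and 2 higher (median -0.85), with 9 calls kept. Anxa4 read 3.72 and 3.34 in OPCL61 and 9.27 and 9.18 in ASTL61 and Anxa3 5.32 and 4.18 in OPCL61 and 8.72 and 8.76 in ASTL61. S100a8 was higher, at 7.15 and 6.96 in OPCL61 and 3.84 and 4.34 in ASTL61. S100a6 and Anxa1 were lower by small amounts (-0.60 ± 0.14 and -0.86 ± 0.17) and bright in both lines, with S100a6 at 12.85 and 13.23 in OPCL61 and 13.56 and 13.71 in ASTL61. In OPC these 2 genes averaged 3.44 and 3.78.

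Of 10 keratins and other intermediate filament genes tested on the list, 1 was higher and 1 lower (median -0.11). The keratin Krt80 was lower, at 4.79 and 4.81 in OPCL61 and 6.84 and 7.32 in ASTL61, and its call was kept. Nestin, Nes, was higher, at 9.49 and 9.07 in OPCL61 and 8.77 and 8.39 in ASTL61, a call lost without OPCL61 array 1 (adjusted p 0.0795) or ASTL61 array 2 (0.0884), each of which left 1 call on the list. Krt6a and Krt76, which are not on that list, lie near each other on chromosome 15. The Krt76 probe set is of a kind that can bind related transcripts, and it read 10.63 and 10.87 in OPCL61 and 4.60 and 5.65 in ASTL61.

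Cell cycle genes passed in unlike shares, against 36.7% over all genes, of which 18.9% were higher and 17.8% lower. The shares were 7.69% for DNA replication, 20.8% for mitosis and 60% for inhibitors and cyclins. Of 26 genes of DNA replication, 1 was higher and 1 lower (median 0.10). Of 24 mitotic genes, 5 were higher and none lower (median 0.21), and no call was kept. Leaving out ASTL61 array 1 gave 6 replication and 9 mitotic calls, and leaving out OPCL61 array 1 gave 1 of each. Without OPCL61 array 2 or ASTL61 array 2 there was 1 mitotic call, a lower one. The proliferation antigen Mki67 read 10.34 and 10.52 in OPCL61 and 10.52 and 9.62 in ASTL61 and did not pass. Of 15 cell cycle inhibitors and cyclins, 5 were higher and 4 lower (median 0.24), with 4 calls kept and 5 left without ASTL61 array 2. The INK4 inhibitor Cdkn2b was lower, at 5.12 and 4.65 in OPCL61 and 9.78 and 9.35 in ASTL61, and Cdkn2c also, at 8.16 and 8.24 in OPCL61 and 9.45 and 9.53 in ASTL61. Cdkn2a did not pass, at 9.87 and 9.41 in OPCL61 and 9.03 and 9.36 in ASTL61. Among Rhox and germline genes, Rhox5 was the single one tested of 27 listed. The other 18 on the array were at background in every group, including Rhox6 and Rhox9.

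**Figure D3:**
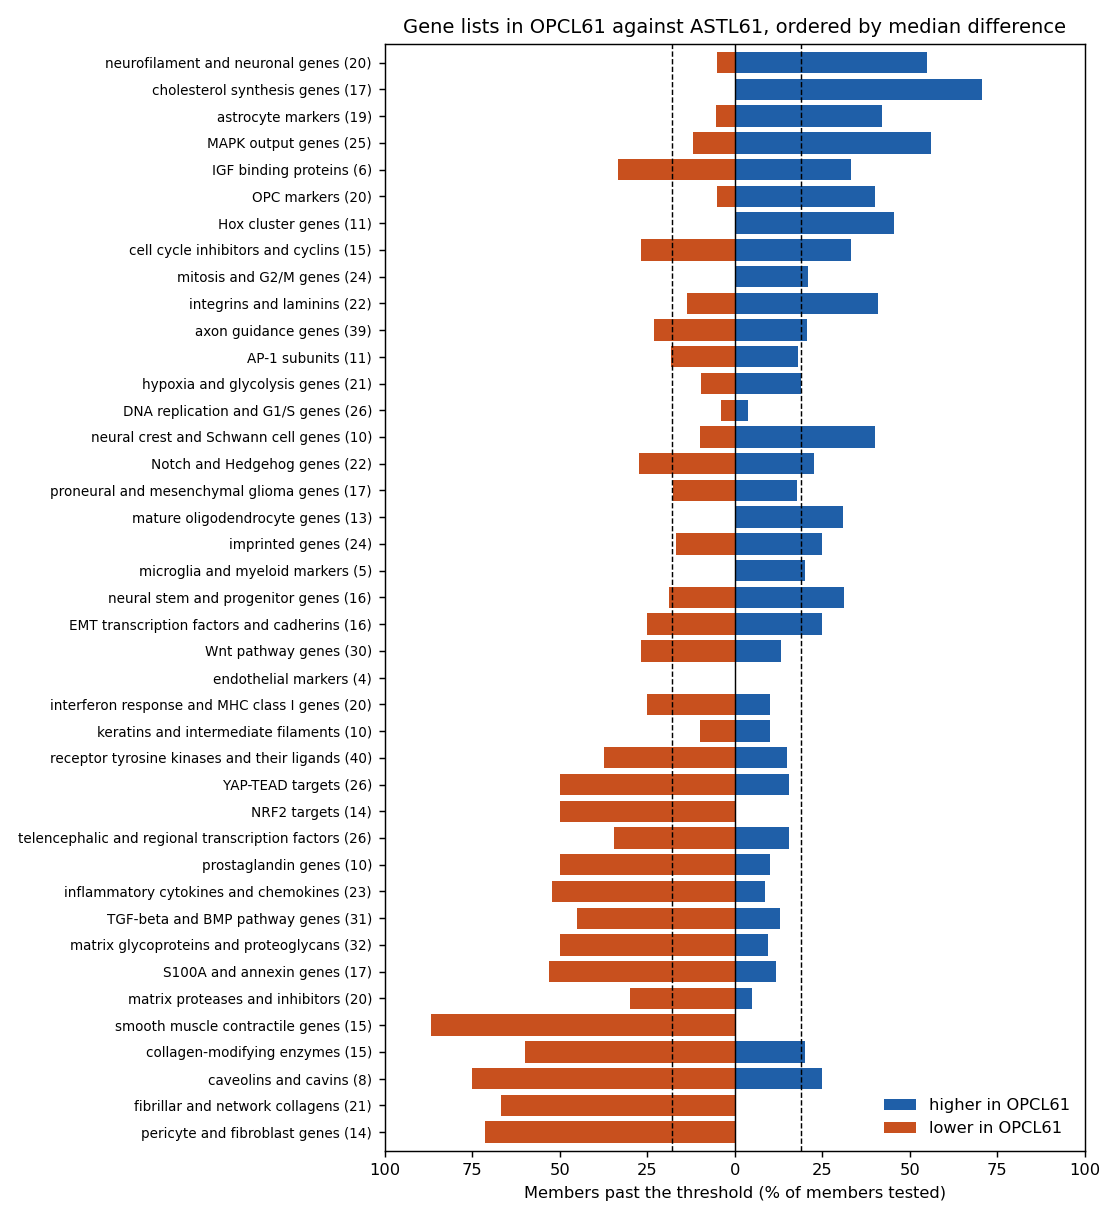
Share of tested members (horizontal axis, percent) that were higher (blue, right) or lower (orange, left) in OPCL61, for each gene list with at least 4 tested members, with that number in parentheses and lists ordered by median difference. Dashed lines mark the shares over all genes, 18.9% higher and 17.8% lower. Smooth muscle, collagen, fibroblast and caveolar genes reach furthest left, and cholesterol, ERK-output and neuronal genes furthest right.

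The lines differed less from each other than their parents did. Between OPC and AST, 6602 of 12787 genes (51.6%) passed, 3322 higher and 3280 lower in OPC, and the SD of the difference over genes was 1.33 against 0.99 for the lines. Across genes, the line and parental differences had a Pearson r of 0.54 and a Spearman rho of 0.41. Those are descriptions over genes that are not independent replicates. The 2 comparisons share no array. Of the 4687 genes that passed between the lines, 2459 (52.5%) passed in the same direction between the parents, 527 (11.2%) in the opposite direction and 1701 (36.3%) did not pass there. Those 2459 genes were 37.2% of the parental calls.

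The difference between the 2 differences was tested directly. It equals the change from OPC to OPCL61 minus the change from AST to ASTL61. The median absolute change over genes was 0.42 for the first and 0.13 for the second. The difference between the 2 differences passed for 4511 genes (35.3%), 2193 with a larger value and 2318 with a smaller value in the lines. These included all 527 genes of opposite direction, 898 of the 1701 that passed between the lines alone and 739 of the 2459 with the same direction. It passed for 8 of 21 collagens, 1 of 14 pericyte and fibroblast genes, 5 of 15 smooth muscle genes and 4 of 8 caveolar genes. For Lox the parental difference was -8.24 ± 0.24 and the change -0.47 ± 0.33 (adjusted p 0.304), and for Cav1 -7.19 ± 0.22 and -0.13 ± 0.31 (adjusted p 0.789), so neither change passed. For Nefl the parental difference was 2.48 ± 0.23 and the change 6.53 ± 0.33 (adjusted p 2.4e-06). For Rhox5 these were 1.93 ± 0.12 and 6.21 ± 0.17 (adjusted p 7.53e-08).

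**Figure D4:**
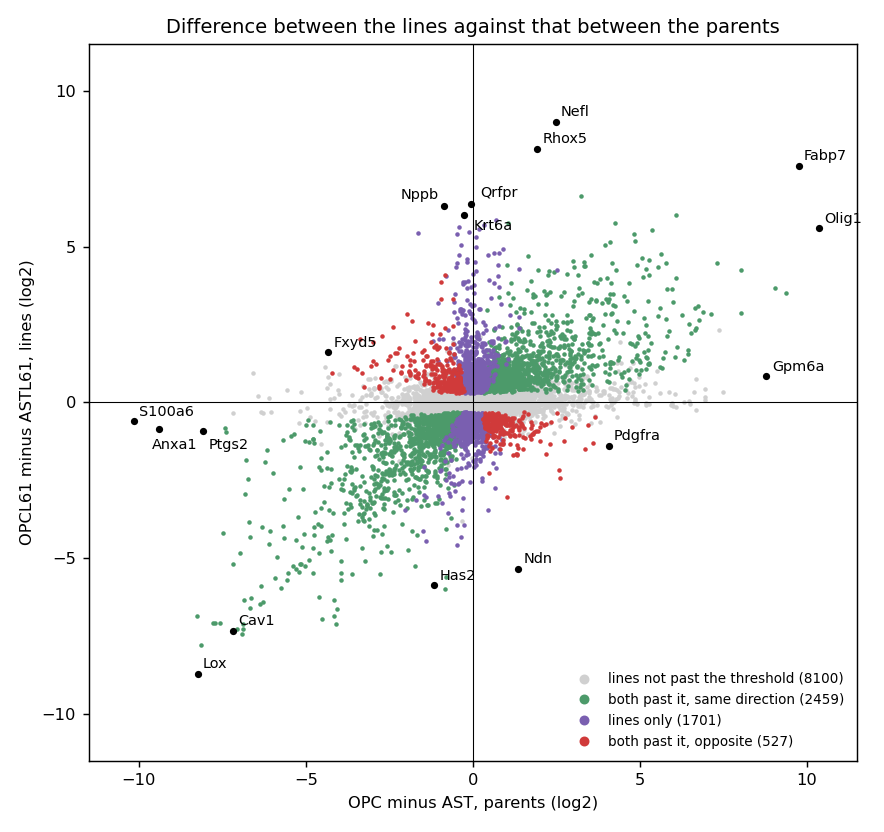
Each point is a gene, with the parental difference OPC minus AST on the horizontal axis and the line difference OPCL61 minus ASTL61 on the vertical axis, both log2. Green points (2459) passed in both in the same direction, purple (1701) in the lines alone, red (527) in opposite directions, and grey points did not pass between the lines.

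The 6 genes with the largest reversals in each direction are given by name. Higher in OPCL61 yet lower in OPC were Nppb, the ion transport regulator Fxyd5, the surface protein Msln, the phospholipase Pla2g7, the membrane protein Emp3 and the inflammatory protease Casp1. Fxyd5 read 9.63 and 10.75 in OPCL61 and 8.24 and 8.92 in ASTL61, against 4.85 and 4.45 in OPC and 9.002 and 8.96 in AST. Casp1 read 8.96 and 9.86 in OPCL61 and 5.26 and 5.37 in ASTL61, against 4.03 and 4.07 in OPC and 5.24 and 4.50 in AST. For both genes the OPCL61 arrays lay above the ASTL61 arrays and the OPC arrays below the AST arrays. Lower in OPCL61 yet higher in OPC were the imprinted gene Ndn, Pdgfra, the lipid phosphatase Plpp3, the neurotrophin receptor Ntrk3, the integrin chain Itgb8 and the collagen chain Col11a1. Ndn read 3.27 and 3.49 in OPCL61 and 8.71 and 8.71 in ASTL61, against 9.89 and 10.23 in OPC and 8.92 and 8.51 in AST. Ndn had thus gone to background in OPCL61 while ASTL61 kept its parental level. Of these 12 line calls, Pdgfra, Fxyd5, Emp3 and Pla2g7 were not kept. The adjusted p of Fxyd5 was 0.131 without OPCL61 array 2 and 0.117 without ASTL61 array 1, and that of Emp3 0.118 and 0.106. That of Pla2g7 was 0.0615 without OPCL61 array 1, 0.0849 without OPCL61 array 2 and 0.143 without ASTL61 array 1.

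Of genes with no parental call and a called change, the 6 largest line differences were Qrfpr, Krt6a, Has2, Itga8, Klhl4 and Krt76. Has2, which makes hyaluronan, was the one lower in OPCL61, at 3.87 and 4.04 in OPCL61 and 9.37 and 10.28 in ASTL61, against 7.15 and 6.81 in OPC and 8.85 and 7.41 in AST. Qrfpr was at background in both parents, at 2.93 and 2.87 in OPC and 3.04 and 2.85 in AST. Klhl4 was also at background there, at 3.03 and 2.75 in OPC and 2.66 and 2.46 in AST. In NSCL61, Qrfpr averaged 9.49, Klhl4 8.62 and Nppb 11.25, near OPCL61, whereas Krt6a averaged 6.45.

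Genes on some chromosomes differed together between the lines, a pattern that was looked for after the values were seen and that has no test. The median difference over the 12733 genes with a chromosome was 0.01. It was -0.46 over the 775 genes of chromosome 4 and -0.45 over the 406 of chromosome 16, where 48.4% and 49.8% of genes were lower in OPCL61, against 17.8% over all chromosomes. It was 0.40 over the 420 genes of chromosome 14 and 0.29 over the 980 of chromosome 7, where 44.8% and 38.0% of genes were higher, against 18.9%. In blocks of at least 50 consecutive genes, all 15 of chromosome 4 and all 8 of chromosome 16 had a median below 0, and all 8 of chromosome 14 and all 19 of chromosome 7 a median above 0. A single sign was not particular to these, since all blocks of chromosomes 1 and 9 lay above 0 and all of chromosomes 6, 15, 17 and 19 below, with smaller medians over each chromosome, between -0.17 and 0.23. For chromosome 4 the 4 possible pairs of an OPCL61 with an ASTL61 array gave medians of -0.509, -0.376, -0.462 and -0.455. ASTL61 minus AST had medians between -0.054 and 0.05 on every chromosome, and OPC minus AST had -0.128 on chromosome 4 and 0.295 on chromosome 14. Nefl and Nefm lie on chromosome 14, Nppb on chromosome 4.

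**Figure D5:**
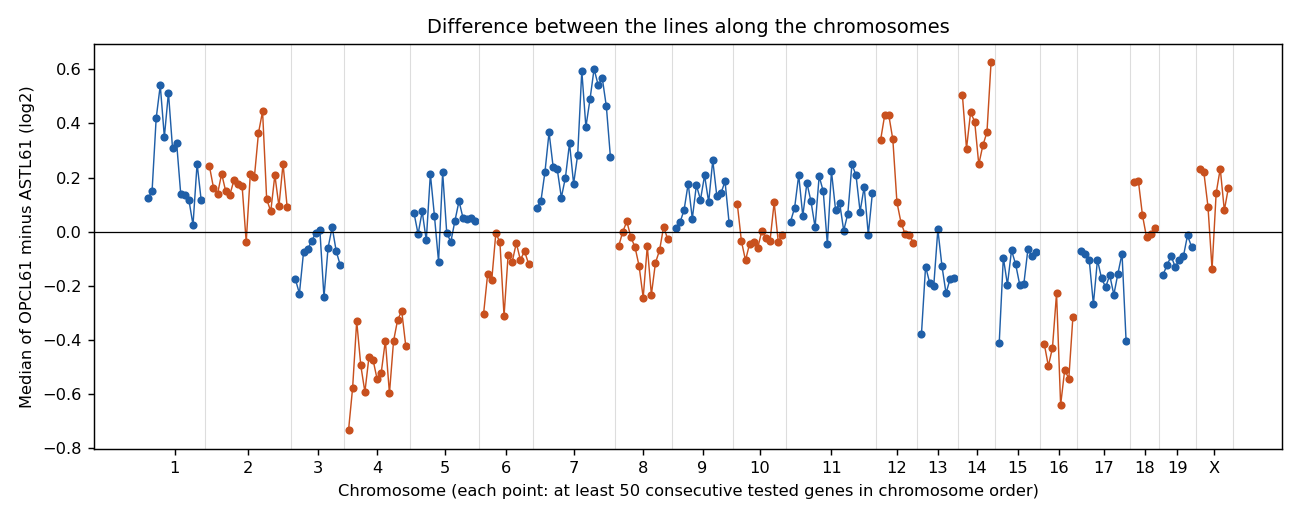
Median of OPCL61 minus ASTL61 (vertical axis, log2) in blocks of at least 50 consecutive tested genes, in chromosome order along the horizontal axis, with colours alternating by chromosome. Blocks of chromosomes 4 and 16 all lie below 0, down to -0.735, and those of chromosomes 7 and 14 all above, up to 0.626.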

How the data were processed

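RNA of 12 samples in 6 groups of 2 was measured on Affymetrix mouse arrays, from 5 micrograms of total RNA labelled in 1 cycle, per the labels' protocols. The values analysed are the deposited log2 signals of 45101 probe sets, 2.139 to 14.334. How they were background-corrected and normalized is not stated in the sources used. Near-equal array medians show that the authors' values already shared a scale, which would hide a change in total RNA. No depth exists for arrays, and their number limits the precision.

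Probe sets with 1 symbol in the platform annotation (34958; 932 had several and 9160 none) gave 18193 genes, each by its probe set with the highest mean. Genes with a group mean above 5.183, the median of all values, were kept (12787). In R 4.3.3, limma 3.58.1 was fitted to 6 group means over all 12 arrays, with 6 residual degrees of freedom (9.303 with the prior). Contrasts were OPCL61 minus ASTL61, OPC minus AST and their difference, two-sided, with Benjamini-Hochberg adjustment and a threshold of 0.05. A gene is called higher or lower where it passed. On simulated data with 200 changed genes among 12787, the line comparison recovered 72% of 2-fold and 96% of 4-fold changes, with 9 false calls. Each simulated gene had the same spread in all groups. The real groups differed in spread, with SDs between their arrays from 0.193 (NSCL61) to 0.416 (OPCL61). The simulated rates therefore need not hold for these data.

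Named are the 12 largest differences each way without overlap between arrays, up to 4 members of a list per direction by p with other members where their list is described, and the 6 largest of each kind in the comparison with the parents. The comparison, its members and the gene lists were chosen with earlier results of these data known. Alternatives were normalization, filter, probe set, arrays fitted, variance model, fold threshold, replicate block and leaving out each array. Title numbers did not pair the arrays: deviations of same-numbered OPCL61 and ASTL61 arrays correlated at 0.0116. Promoter sequences are RefSeq's on GRCm38.p6.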

Additional observations from a re-analysis of the deposited data

Results flagged for a closer look

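For 4511 genes the line difference departed from the parental one in a direct test of the difference between the 2 differences (limma, adjusted p under 0.05), and the values below give its size for genes named in the results, in log2 units. Among genes higher in OPCL61 but lower in OPC, the departure was 7.16 for Nppb (5.15e-07), 5.94 for Fxyd5 (0.000146), 5.40 for Msln (6.66e-05), 5.16 for Pla2g7 (1.79e-05), 4.92 for Emp3 (0.00117) and 4.91 for Casp1 (4.21e-05), with limma's adjusted p in parentheses here and below. Among genes lower in OPCL61 but higher in OPC, it was -6.68 for Ndn (3.2e-06), -5.45 for Pdgfra (0.000218), -5.05 for Plpp3 (0.000189), -4.91 for Ntrk3 (1.09e-05), -4.86 for Itgb8 (5.02e-05) and -4.73 for Col11a1 (0.000288).

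Among genes with no call between the parents, the departure was 6.41 for Qrfpr (7.53e-08), 6.27 for Krt6a (2.16e-06), 6.04 for Krt76 (1.07e-05), 5.36 for Klhl4 (0.000188), 5.18 for Itga8 (7.52e-05) and -4.72 for Has2 (0.00996). For the 2 line markers that were higher in OPCL61 it was 6.53 for Nefl (2.4e-06) and 6.21 for Rhox5 (7.53e-08). For precursor markers, whose difference was smaller between the lines than between the parents, it was -4.78 for Olig1 (2.48e-06), -5.84 for Olig2 (6e-06), -3.77 for Ptprz1 (0.000245) and -7.96 for Gpm6a (1.97e-08).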

How the results depend on the processing

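The precision rests on 2 arrays a group. A tested fold change of at least 2 left 647 genes between the lines (310 higher, 337 lower), 1601 between the parents, 838 for the difference between the 2 and 128 of 362 called list genes. A fit of the 4 line arrays alone left 2583, with 5 neural stem, 12 matrix glycoprotein, 2 AP-1, 5 cell cycle inhibitor, 3 hypoxia, 1 Hox and no replication or mitotic calls. The other settings stayed within 1.5 times of the reported counts, with 3620 (array weights) to 4767 (trended and robust prior) between the lines. Leaving out each array gave 3680 to 4116, 5174 to 5535, 3257 to 4547 and 289 to 333 in the same order. The replicate block, on title numbers not known to pair the arrays, gave 4625, 6532, 4434 and 363. Mitotic genes had 2 calls with median centring or no filter, 3 with probe sets averaged per gene and 1 with array weights. Signs turned only for genes without a call among those named, Sox10 (-0.037, quantile normalisation), Egfr (-0.072, probe sets averaged) and, with each line array left out in turn, Egfr (-0.044 to 0.267), Egr1 (-0.222 to 1.212), Fosl1 (-0.825 to 0.285), Gja1 (-0.034 to 0.303), Lum (-0.246 to 0.169), Map2 (-0.759 to 0.545), Mki67 (-0.094 to 0.81), Wwtr1 (-0.139 to 0.299) and Zeb1 (-0.003 to 0.608).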

Other observations

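Genes of cholesterol synthesis were higher in OPCL61 in 12 of 17 cases and lower in none, with a median difference of 1.14 against 0.01 over all genes (18.9% of which were higher and 17.8% lower), and 5 calls were kept after any 1 of the 4 line arrays was left out. There were 5 calls without OPCL61 array 2, 7 without ASTL61 array 1 and 6 without ASTL61 array 2. Dhcr7, which makes the last step to cholesterol, read 9.36 and 9.81 in OPCL61 and 7.09 and 7.18 in ASTL61, and the sterol demethylase Cyp51 11.13 and 11.61 in OPCL61 and 9.69 and 9.88 in ASTL61. In the parents 9 of the 17 were higher in OPC, against 26% of all genes. Targets of NRF2, the factor of oxidative stress, were lower in 7 of 14 cases and higher in none (median -0.51), with 6 calls kept. The glutathione transferase Gstp1 read 6.28 and 6.66 in OPCL61 and 12.09 and 12.06 in ASTL61, and the quinone reductase Nqo1 5.42 and 5.57 in OPCL61 and 7.83 and 9.27 in ASTL61. Of 21 hypoxia and glycolysis genes, 4 were higher and 2 lower (median 0.10), with 3 calls kept, 10 calls without OPCL61 array 1 and 3 without ASTL61 array 2. The glucose transporter Slc2a3 read 11.04 and 9.63 in OPCL61 and 6.02 and 6.22 in ASTL61.

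Of 24 imprinted genes, 6 were higher and 4 lower (median 0.06), close to the shares over all genes, with 8 calls kept. Peg3 read 8.24 and 7.91 in OPCL61 and 4.79 and 4.54 in ASTL61, Nnat 8.14 and 7.34 in OPCL61 and 4.75 and 5.14 in ASTL61 and the growth factor adaptor Grb10 4.11 and 3.98 in OPCL61 and 9.55 and 9.53 in ASTL61. Xist, the RNA that silences an X chromosome, read 11.21 and 11.40 in OPCL61 and 7.20 and 7.73 in ASTL61 and 11.91 and 12.27 in OPC and 8.34 and 8.39 in AST, and the Y-linked genes on the array were at background in every group. The line difference of Xist was 3.84 ± 0.23 and the parental one 3.72 ± 0.23. Regional transcription factors were lower in 9 of 26 cases and higher in 4 (median -0.52), with 11 calls kept, Zic1 at 5.86 and 6.25 in OPCL61 and 10.17 and 10.07 in ASTL61 and Pou3f4 at 7.80 and 8.95 in OPCL61 and 4.20 and 4.05 in ASTL61. Of 11 Hox genes with a mean above background in at least 1 group of the series, 5 were higher in OPCL61 (median 0.29). Not all 5 calls were kept, and fewer passed with any 1 line array left out. Of the 33 Hox genes on the array, 8 had an OPCL61 mean above background and 7 an ASTL61 mean. Hoxa10 was under that level in every group and was not tested, with means of 4.99 in OPCL61 and 2.71 in ASTL61. Hoxa7 read 8.14 and 8.85 in OPCL61 and 6.49 and 6.52 in ASTL61. The size depends on the probe set for 2 of the 5, since another probe set differed by 4.12 for Hoxa9, against 0.38 for the one used, and by 3.78 for Hoxa5, against 0.51.

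Of 30 Wnt pathway genes, 4 were higher and 8 lower (median -0.05), with 7 calls kept. The ligand Wnt7b read 9.64 and 9.45 in OPCL61 and 6.58 and 6.49 in ASTL61, and the Wnt amplifier Rspo3 3.52 and 3.54 in OPCL61 and 5.12 and 5.40 in ASTL61. Wnt, axon guidance and interferon genes passed in 40%, 43.6% and 35% of cases, near the 36.7% over all genes. Notch and Hedgehog genes passed in 50%. Of 22 Notch and Hedgehog genes, 5 were higher and 6 lower (median 0.09), with 4 calls kept, 6 calls without ASTL61 array 1 and 7 without ASTL61 array 2. The Hedgehog effectors differed in direction, with Gli2 at 7.73 and 7.45 in OPCL61 and 6.30 and 6.195 in ASTL61 and Gli3 at 7.35 and 7.55 in OPCL61 and 9.15 and 8.97 in ASTL61. Of 39 axon guidance genes, 8 were higher and 9 lower (median 0.15), with 10 calls kept and 10 calls without ASTL61 array 2. Sema6d read 10.81 and 9.80 in OPCL61 and 5.44 and 5.90 in ASTL61, and Slit2 6.68 and 8.27 in OPCL61 and 10.02 and 11.12 in ASTL61. Of 20 interferon and MHC class I genes, 2 were higher and 5 lower (median -0.10), with 5 calls kept, among them the interferon target Bst2, at 4.88 and 5.01 in OPCL61 and 6.87 and 6.85 in ASTL61. Of 17 genes that mark proneural or mesenchymal glioma, 3 were higher (Olig2, Bcan and Nkx2-2), 3 lower (Met, Fosl2 and Runx1) and 11 did not pass, with a median of 0.07 and shares like those over all genes. The Runx1 call was not kept, and the 3 higher genes are also on the list of precursor markers.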
